A study of Mus musculus with 4 samples.

Results

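The unfolded protein and ATF4 stress response is described here through 33 genes in myeloid-derived suppressor cells (MDSCs) treated with (−)-epigallocatechin-3-gallate (EGCG), a catechin abundant in green tea. The 33 members were taken from the deposited gene table by their symbols. Each symbol matched a single row among 53465 listed genes, and 33 of 33 had enough counts to be tested. They comprised 14 chaperones and folding enzymes of the endoplasmic reticulum (ER), 4 genes of the stress sensors and Xbp1, 7 genes of ER-associated degradation, and 8 genes of the ATF4 arm.

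MDSCs are immature myeloid cells that expand in tumor-bearing hosts and restrain T cells. They were obtained from spleens of BALB/c mice carrying 4T1 tumors, a transplantable mammary carcinoma, and no sample came from a tumor-free mouse. According to the methods of the study, the mice were male and 6 weeks old when 4T1 cells were injected under the skin. The cells were then collected by magnetic beads against Gr-1, an epitope of both Ly-6G and Ly-6C. The labels place the sacrifice on day 21 after injection, whereas the methods give a shorter interval. The control group (2 libraries) received control medium for 6 h and the EGCG treatment group (2 libraries) received 5 µg/mL EGCG for 6 h. Whether the replicates of a group are separate mice or separate wells is not stated in the sources used here, so p-values measure only the spread between these libraries, which may be technical.

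A cell that makes more secreted or membrane protein than its ER can fold activates 3 sensors in the ER membrane. ATF6 is released as a transcription factor, IRE1 splices the mRNA of the transcription factor XBP1, and PERK phosphorylates the initiation factor eIF2α. Phosphorylated eIF2α slows protein synthesis in general while allowing translation of ATF4, which also responds to lack of amino acids through the kinase GCN2. ATF6 and spliced XBP1 raise chaperone and degradation genes, and ATF4 raises genes of amino acid supply and, through CHOP, genes of cell death. In myeloid cells of tumors, this response is known as part of the adaptation to a stressed environment. The comparison asked whether the RNA of these genes differed between MDSCs cultured with and without EGCG.

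ATF6, together with the factor NF-Y, is known to bind the ER stress response element (ERSE), which reads CCAAT, then 9 bases, then CCACG. The promoters of the members were searched for this element on both strands, in RefSeq windows (GRCm38.p6) of 300 bases, from 250 before to 50 after the start of transcription. A window was present for 29 of 33 members and was not found in the table used here for Atf6, Derl1, Hyou1 and Manf. An ERSE was found in 9 of the 29, and 0.119% of all 32851 promoter windows held one (39 windows). The elements are printed because they recur among the chaperone and degradation members, and capitals mark the CCAAT and CCACG parts. Each is written 5′ to 3′ along the strand that reads CCAAT first.
Hspa5: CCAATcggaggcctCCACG
Calr: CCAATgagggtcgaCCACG
Hsp90b1 (first element): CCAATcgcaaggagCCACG
Hsp90b1 (second element): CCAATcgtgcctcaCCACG
Canx: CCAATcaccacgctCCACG
Pdia6: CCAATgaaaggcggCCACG
Dnajc3: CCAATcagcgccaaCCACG
Creld2: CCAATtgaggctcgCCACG
Syvn1: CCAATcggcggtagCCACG
Derl3: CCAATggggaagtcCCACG

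The Hspa5 element lay at chr2:34772025-34772043, 65 bases upstream of the RefSeq start and on the strand of the gene. The GENCODE gene model of Hspa5 begins further upstream, so this element lies inside the gene coordinates given with its values. Those of Canx (chr11:50325800-50325818), Pdia6 (chr12:17266491-17266509), Dnajc3 (chr14:118937827-118937845) and Syvn1 (chr19:6046532-6046550) were also on the strand of their gene. The elements of Calr (chr8:84847075-84847093), Creld2 (chr15:88819520-88819538) and Derl3 (chr10:75893242-75893260) were on the opposite strand. Hsp90b1 had 1 on its own strand (chr10:86705638-86705656) and 1 on the opposite strand (chr10:86705533-86705551). Of the 10 elements, 8 belonged to chaperone genes and 2 to degradation genes, and no gene of the ATF4 arm held one. The core of the unfolded protein response element, TGACGTGG, was in none of the members' windows (0 of 29) and in 0.676% of all windows. A composite of a C/EBP site and an ATF site, TGATGCAAT, was likewise in 0 of 29 and in 0.192% of all windows. These matches are descriptions of letters in a window and not of binding.

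Xbp1 carries the other sequence on which the response turns. IRE1 cuts a stretch of 26 bases out of its mRNA, which shifts the reading frame and yields the active factor. This stretch lies in the coding sequence of exon 4 (transcript Xbp1-201), at chr11:5524279-5524304 on the plus strand of GRCm38. In the printed line, the excised bases are in capitals and 10 flanking bases on each side are in lower case.
Xbp1: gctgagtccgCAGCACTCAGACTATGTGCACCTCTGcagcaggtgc
Counts were deposited per gene, so spliced and unspliced Xbp1 were not separated, and the values for Xbp1 are the sum of both forms.

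Between 17767318 and 18390385 reads were counted on genes in each library, and 14682 genes were tested with edgeR's quasi-likelihood test. Of these, 22 genes (0.15%) differed between the groups at an adjusted p under 0.05. Neutrophil markers dominated the marker genes of 12 cell type lists. The neutrophil marker Ly6g was between 943 and 1200 CPM (counts per-million, relative to the TMM-scaled library total) in the 4 libraries, and the summed CPM of the 8 neutrophil markers was 51032 and 61603 in control replicates 1 and 2 and 70286 and 60688 in EGCG replicates 1 and 2. Transcripts of other splenic cells were present as well. In RNA from bulk samples, fewer cells of a type and less RNA per cell cannot be told apart.

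None of the 33 members differed between the EGCG treatment group and the control group at an adjusted p under 0.05 (0 of 33, edgeR's quasi-likelihood test, p-values adjusted after Benjamini and Hochberg over 14682 genes). DESeq2 also called 0 members. At an unadjusted p under 0.05, edgeR gave 4 members at a higher level with EGCG (Trib3, Asns, Dnajb9 and Derl1), or 12.1% of the members against 5.22% of all tested genes. It gave 2 at a lower level (Hyou1 and Pdia4), or 6.06% against 7.02%, and DESeq2 gave 0 higher and 2 lower, where it gave 2.59% of all tested genes higher and 3.69% lower. The adjusted p of the members ranged from 0.107 to 0.997.

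The log2 fold changes of the members, EGCG against control, were small. They ranged from -0.39 for Hyou1 to 0.40 for Trib3, with a median of -0.05 beside 0.0031 for all tested genes. The fitted fold change was lower with EGCG for 19 members and higher for 14. The share of 57.6% lower stood beside 49.4% of all tested genes. With library size as the only scaling the split was 24 lower and 9 higher, and the median of all tested genes also moved down, to -0.03. Both EGCG libraries were below both control libraries for 10 members (30.3%, against 21.2% of all tested genes), and both were above for 6 (18.2%, against 21.5%). In the other 17 members the groups overlapped.

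The intervals given next measure only the spread between these libraries, which may be technical. The SE was derived from the fold change and the F statistic of the test. That test shares the spread across genes, and 12.1 of its 14.1 degrees of freedom came from this sharing. The 95% confidence interval of the log2 fold change reached 0.15 to 0.68 to either side of the fitted value, with a median of 0.19. The interval included 0 for 27 members. It lay inside a 1.5-fold difference in either direction for 30 members and inside a 2-fold difference for 33. The widest interval belonged to Derl3, whose counts of 28 to 34 per library were the lowest of the set.

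**Figure D1:**
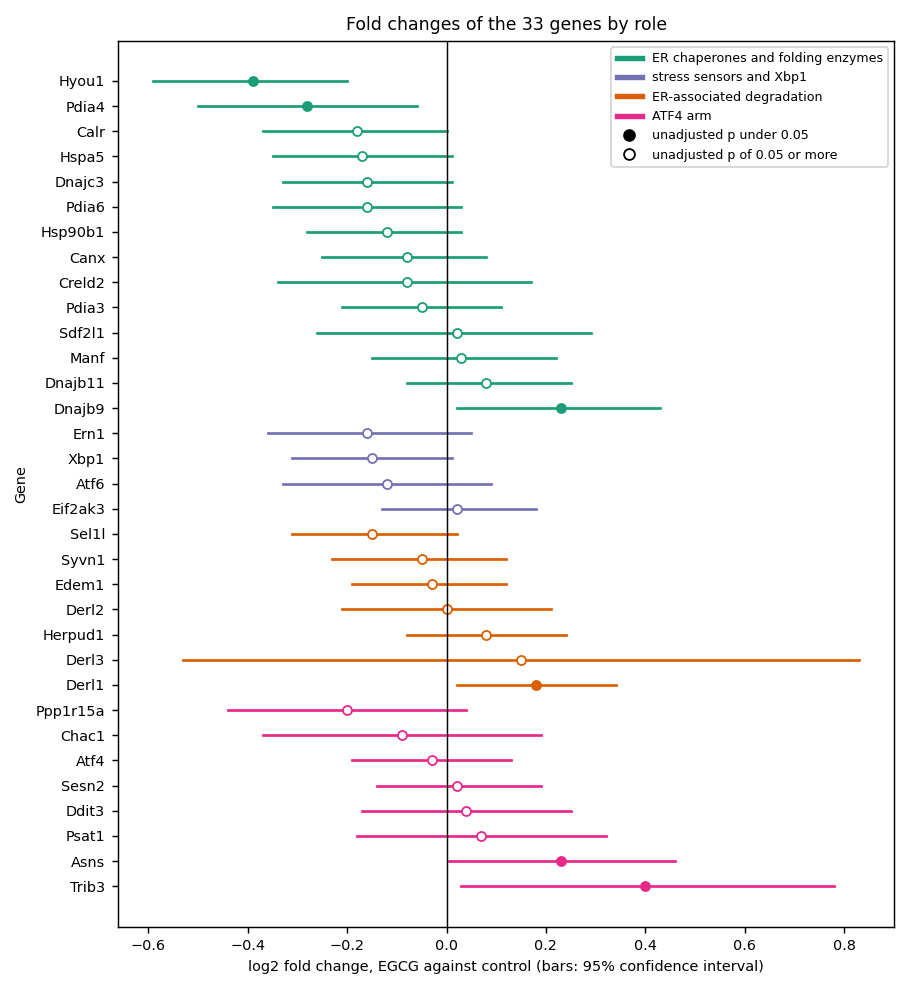
Log2 fold change of each of the 33 members, EGCG against control, grouped by role, with points for the fitted value and bars for the 95% confidence interval. Values run from -0.39 (Hyou1) to 0.40 (Trib3), and 27 of the 33 bars cross 0.

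Levels differed far more between genes than between groups. On a scale of CPM per kilobase of exon, averaged over the 4 libraries, Hspa5 (90.2), Calr (88.6) and Atf4 (77.1) were the most abundant members, at percentiles 95.1 to 95.8 of the tested genes. The ranges of these 3 over the libraries overlapped, so their order is not fixed. Pdia3 (60.9) followed, apart from its neighbours on either side. Derl1 (48.3), Hsp90b1 (45.7), Xbp1 (43.3) and Herpud1 (40.2) came next, and each overlapped its neighbour in range.

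At the low end, the sensors Ern1 (5.47 CPM per kilobase) and Atf6 (4.97) lay near the middle of all tested genes, at percentiles 56.2 and 54.1. Trib3 (2.95) and Derl3 (0.821) were the lowest members, at percentiles 43.7 and 20.4, and neither overlapped its neighbour in range. Over the whole order, 26 of 32 neighbouring pairs overlapped in range.

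**Figure D2:**
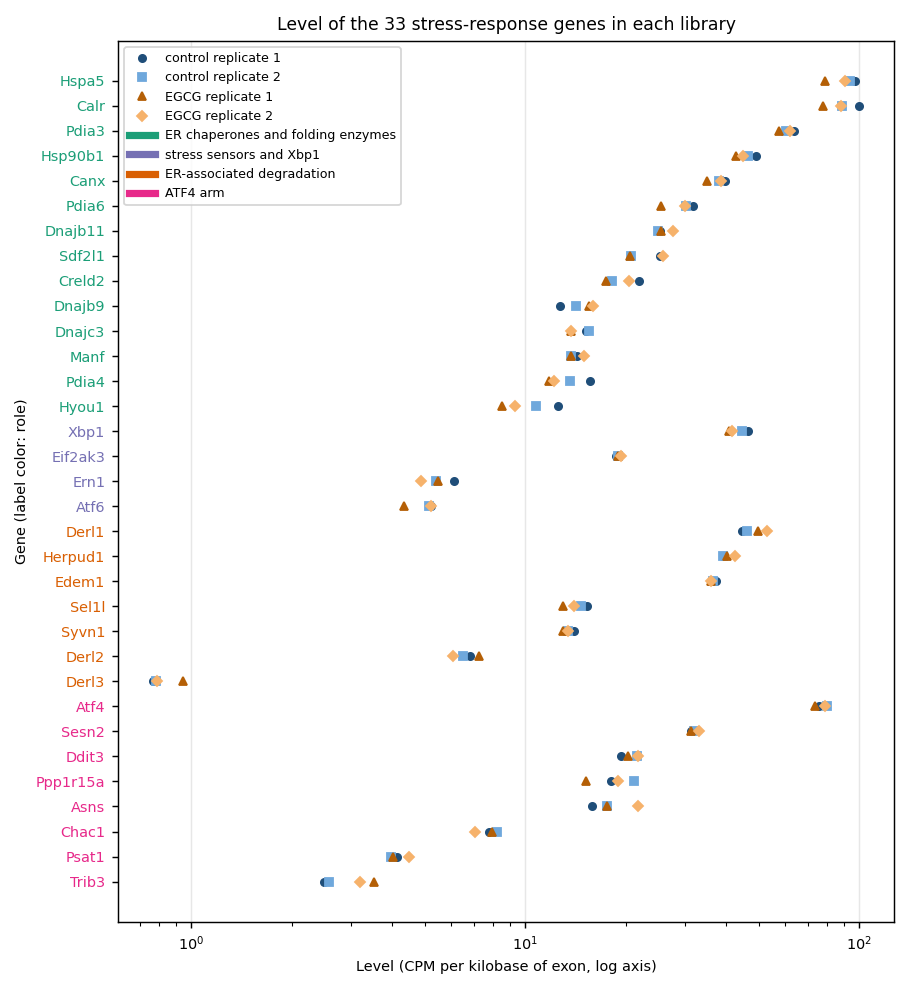
Level of each member in each of the 4 libraries, in CPM per kilobase of exon on a log axis, with blue marks for control and orange marks for EGCG libraries and genes ordered within role. Genes span from 0.821 (Derl3) to 90.2 (Hspa5) on average, and within each gene the 4 marks lie close together.

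Of the 14 chaperones and folding enzymes, none passed the test. The fitted fold change was lower for 10 of 14 (71.4%, against 49.4% of all tested genes), with a median log2 fold change of -0.10 and a range of -0.39 to 0.23. The EGCG libraries were both below the control libraries for 7 of 14 (50%, against 21.2% of all tested genes) and both above for 2 of 14 (14.3%, against 21.5%). No adjusted p was under 0.05 (0 of 14). An unadjusted p under 0.05 was reached by Hyou1 and Pdia4 at lower levels (14.3%, against 7.02% of all tested genes). Dnajb9 reached it at a higher level (7.14%, against 5.22%). The summed level of the 14 genes was 1830 and 1722 CPM in control replicates 1 and 2 and 1547 and 1714 CPM in EGCG replicates 1 and 2. The lowest sum was thus in EGCG replicate 1, and EGCG replicate 2 lay close to control replicate 2. EGCG replicate 1 was the lowest library for 11 of the 14 genes, and control replicate 1 was the highest for 9. Without EGCG replicate 1 the median of the role was -0.02, and without EGCG replicate 2 it was -0.16. Markers of macrophages, summed, were at 362 and 366 CPM in the control replicates and at 289 and 303 CPM in the EGCG replicates. Endothelial markers were at 18.9 and 19.6 CPM against 10.1 and 13.2 CPM, and both sums were also lowest in EGCG replicate 1. Of the 6 macrophage markers, 5 were lowest in EGCG replicate 1. Adgre1, the largest part of the macrophage sum, was lowest in EGCG replicate 2 (196 and 228 CPM against 181 and 170 CPM). The plasma cell sum went the other way, at 207 and 227 CPM against 267 and 236 CPM. The neutrophil sum was lowest in control replicate 1 (51032 CPM) and highest in EGCG replicate 1 (70286 CPM). The part of these cell types in the chaperone values was not tested.

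Hyou1, an ER chaperone of the large HSP70 family (ENSMUSG00000032115, chr9:44379490-44392369), had the smallest p of the members. Its level was 90.6 and 77.9 CPM in control replicates 1 and 2 and 61.4 and 67.2 CPM in EGCG replicates 1 and 2. Both EGCG libraries were below both control libraries, and the mean was 84.3 ± 9.01 CPM (SD, n = 2) in the control group and 64.3 ± 4.14 CPM (SD, n = 2) in the EGCG treatment group. The log2 fold change was -0.39 (SE 0.09, 95% confidence interval -0.59 to -0.20), or 0.763-fold. The unadjusted p of 0.000739 became 0.107 once adjusted in edgeR's quasi-likelihood test. Over the other filters, scalings and models, the adjusted p ran from 0.026 with library size as the only scaling to 0.65 with no filter on low counts. Leaving out control replicate 2 gave 0.00275 and leaving out EGCG replicate 2 gave 0.00936, but leaving out control replicate 1 gave 0.487 and leaving out EGCG replicate 1 gave 0.189, so the call rests on which libraries enter.

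Pdia4, a protein disulfide isomerase that forms and rearranges disulfide bonds (ENSMUSG00000025823, chr6:47796141-47813430), was at 37.4 and 32.5 CPM in control replicates 1 and 2 and at 28.3 and 29.3 CPM in EGCG replicates 1 and 2. Here too the groups did not overlap. For Pdia4 the log2 fold change was -0.28 (SE 0.10), with an unadjusted p of 0.0159 and an adjusted p of 0.295 by edgeR's quasi-likelihood test. It was -0.17 without control replicate 1, the highest library.

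Hspa5 encodes BiP, the HSP70 chaperone that holds the sensors inactive and serves as the usual readout of the response (ENSMUSG00000026864, chr2:34771970-34777547). It was at 412 and 395 CPM in control replicates 1 and 2 and at 334 and 384 CPM in EGCG replicates 1 and 2. The control libraries were the higher ones, but EGCG replicate 2 lay close to control replicate 2. The mean was 404 ± 11.8 CPM (SD, n = 2) in the control group and 359 ± 35.3 CPM (SD, n = 2) in the EGCG treatment group, a log2 fold change of -0.17 (SE 0.08, 95% confidence interval -0.35 to 0.01). The adjusted p was 0.431 in edgeR's quasi-likelihood test. The log2 fold change was -0.07 without EGCG replicate 1 and -0.27 without EGCG replicate 2.

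Calr, the lectin-like chaperone calreticulin that binds calcium and new glycoproteins (ENSMUSG00000003814, chr8:84841850-84846934), showed the same order of libraries. Its level was 288 and 255 CPM in control replicates 1 and 2 and 225 and 254 CPM in EGCG replicates 1 and 2. Control replicate 2 and EGCG replicate 2 were nearly level. Calr had a log2 fold change of -0.18 (SE 0.09, adjusted p = 0.414 by edgeR's quasi-likelihood test), which was -0.09 without control replicate 1 and likewise -0.09 without EGCG replicate 1.

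Dnajb9, a co-chaperone of BiP also known as ERdj4 (ENSMUSG00000014905, chr12:44205559-44210326), went the other way. It was at 32.4 and 36.3 CPM in control replicates 1 and 2 and at 39.5 and 40.9 CPM in EGCG replicates 1 and 2. Both EGCG libraries were above both control libraries. Its log2 fold change was 0.23 (SE 0.10, adjusted p = 0.363 by edgeR's quasi-likelihood test), and it lay between 0.15 and 0.31 when libraries were left out in turn. Of the 31-base words in its transcripts, 10.8% also occur in transcripts of other genes, and the gene model Gm6568 shares the most. How far this affects its counts was not tested.

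The remaining 9 chaperone genes had log2 fold changes from -0.16 to 0.08 and their adjusted p in edgeR's quasi-likelihood test ran from 0.424 to 0.976. Dnajc3 was at 77.9 and 79.5 CPM in the control replicates and at 70.2 and 70.7 CPM in the EGCG replicates, with a log2 fold change of -0.16. Pdia6 (-0.16) and Hsp90b1 (-0.12), the ER member of the HSP90 family, had both EGCG libraries below both control libraries. Pdia6 was at 113 CPM in both control replicate 2 and EGCG replicate 2, and its value was -0.04 without EGCG replicate 1 and -0.29 without EGCG replicate 2. Dnajb11 (0.08), another BiP co-chaperone, had both above, though EGCG replicate 1 (82.6 CPM) was close to control replicate 1 (81.9 CPM), and it ran from 0.03 to 0.15 with a library left out. The groups overlapped for Canx (-0.08), the membrane-bound relative of calreticulin, and for Pdia3 (-0.05), Creld2 (-0.08), Sdf2l1 (0.02) and Manf (0.03), a secreted protein of the stress response. Among these, Pdia3, Creld2, Sdf2l1 and Manf turned direction when a library was left out, and Canx ran from -0.16 to -0.01. Of the exonic bases of Hsp90b1, 10.29% overlap a pseudogene on the opposite strand that had 60 counts in all, while Hsp90b1 had 13303. Manf, with 3599 counts, overlaps genes with more reads. These are Dcaf1 on the opposite strand (4.14% of bases, 1228 counts) and Rbm15b on the same strand (0.4%, 4185 counts). The effect on its counts was not tested.

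Among the sensors and Xbp1, the fitted fold change was lower with EGCG for 3 of 4 genes, and the median was -0.13. An unadjusted p under 0.05 was reached by 0 of 4, where 5.22% of all tested genes were higher and 7.02% lower. Leaving out control replicate 1 gave a median of -0.08, and leaving out EGCG replicate 1 gave -0.06. Xbp1 (ENSMUSG00000020484, chr11:5520659-5525893) was at 151 and 145 CPM in control replicates 1 and 2 and at 132 and 135 CPM in EGCG replicates 1 and 2. The groups did not overlap and replicates lay close together, at 148 ± 4.12 CPM (SD, n = 2) in the control group and 134 ± 2.01 CPM (SD, n = 2) in the EGCG treatment group. The log2 fold change was -0.15 (SE 0.07, 95% confidence interval -0.31 to 0.01), with an adjusted p of 0.441 by edgeR's quasi-likelihood test. It stayed between -0.17 and -0.12 when libraries were left out in turn.

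Eif2ak3, which encodes PERK (ENSMUSG00000031668, chr6:70844515-70905245), was at 113 and 115 CPM in the control replicates and at 114 and 117 CPM in the EGCG replicates. The groups overlapped, the log2 fold change was 0.02 (SE 0.07), and it was -0.01 with library size as the only scaling. Ern1, which encodes IRE1α, had a log2 fold change of -0.16 (SE 0.10), and Atf6 one of -0.12 (SE 0.10), and both overlapped between groups. Ern1 was at -0.06 without control replicate 1 and at -0.07 without EGCG replicate 2, and Atf6 turned to 0.01 without EGCG replicate 1. Atf6 was at 40.0 CPM in EGCG replicate 1 and between 47.3 and 48.2 CPM in the other libraries. With a correction for transcript length, the median of the 4 genes was -0.03, beside 0.03 for all tested genes.

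ER-associated degradation returns misfolded proteins to the cytosol for the proteasome. In its 7 genes the median log2 fold change was 0.0012, and 4 were higher and 3 lower with EGCG. Leaving out control replicate 1 moved that median to 0.04, leaving out EGCG replicate 2 also to 0.04, leaving out either of the others to -0.03, library size as the only scaling to -0.03 and the length correction to 0.07. For all tested genes the median was -0.03 with library size as the only scaling and 0.03 with the length correction. Both EGCG libraries were above both control libraries for 3 genes (42.9%, against 21.5% of all tested genes) and below for 2 (28.6%, against 21.2%). An unadjusted p under 0.05 was reached by 1 of the 7 at a higher level (14.3%, against 5.22% of all tested genes). It was reached by 0 at a lower level, against 7.02%. The 1 gene was Derl1, part of the channel through which proteins leave the ER (ENSMUSG00000022365, chr15:57869502-57892448). It was at 149 and 153 CPM in control replicates 1 and 2 and at 165 and 176 CPM in EGCG replicates 1 and 2. The EGCG libraries were both higher, with means of 151 ± 3.44 CPM (SD, n = 2) in the control group and 171 ± 8.14 CPM (SD, n = 2) in the EGCG treatment group. This gave a log2 fold change of 0.18 (SE 0.07, adjusted p = 0.366 by edgeR's quasi-likelihood test). Of the 31-base words of Derl1, 8.6% are shared with other genes, and the gene model Gm35638 shares the most.

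Herpud1, an ER membrane protein that gathers the degradation complex (ENSMUSG00000031770, chr8:94386438-94395377), was at 91.1 and 91.4 CPM in the control replicates and at 93.8 and 99.2 CPM in the EGCG replicates. Both EGCG libraries were higher, and the log2 fold change was 0.08 (SE 0.08, adjusted p = 0.72 by edgeR's quasi-likelihood test). It was 0.12 without EGCG replicate 1 and 0.04 without EGCG replicate 2. Sel1l and Syvn1 form the core ubiquitin ligase of this pathway. Sel1l, at 131 and 126 CPM in the control replicates and 111 and 120 CPM in the EGCG replicates, had a log2 fold change of -0.15 (SE 0.08), which was -0.09 without EGCG replicate 1 and -0.05 with the length correction. Syvn1 had one of -0.05 (SE 0.08), with overlapping groups, and ran from -0.08 to -0.02 with a library left out. Edem1, a lectin that marks glycoproteins for disposal, was between 232 and 240 CPM in all 4 libraries. Derl2 overlapped between groups, and Derl3, the only member at such low counts, was at 1.53 to 1.88 CPM, and its groups were counted as apart although control replicate 2 and EGCG replicate 2 were both at 1.57 CPM. Its log2 fold change of 0.15 was 0.02 without EGCG replicate 1. On the opposite strand, Mis12 (1306 counts) overlaps 2.87% of the exonic bases of Derl2 (3875 counts). Mrpl49 (804 counts) likewise overlaps 1.87% of those of Syvn1 (4708 counts).

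In the ATF4 arm, 5 of 8 genes had a higher and 3 a lower fitted fold change with EGCG, with a median of 0.03 and a range of -0.20 to 0.40. With library size as the only scaling the median of the arm was -0.0017, beside -0.03 for all tested genes. It was -0.01 without control replicate 1 and also without EGCG replicate 2, and 0.08 without EGCG replicate 1. The groups overlapped for 7 of the 8 genes, with 1 gene (12.5%) above and 0 below, against 21.5% and 21.2% of all tested genes. Summed over the arm, the level was 453 and 483 CPM in control replicates 1 and 2 and 447 and 491 CPM in EGCG replicates 1 and 2, so each group held a lower and a higher library.

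Atf4 itself, the transcription factor of the arm (ENSMUSG00000042406, chr15:80255184-80257541), was at 179 and 188 CPM in control replicates 1 and 2 and at 173 and 186 CPM in EGCG replicates 1 and 2. The groups overlapped, with a log2 fold change of -0.03 (SE 0.08, adjusted p = 0.914 by edgeR's quasi-likelihood test), and the sign turned without control replicate 2 (0.01) and without EGCG replicate 1 (0.02). ATF4 is controlled mainly at translation, which RNA levels do not measure. Ddit3, which encodes CHOP (ENSMUSG00000025408, chr10:127290774-127296288), was at 33 and 37 CPM in the control replicates and at 34.8 and 37.3 CPM in the EGCG replicates. EGCG replicate 1 lay between the control libraries and EGCG replicate 2 just above them, and the fold was 1.03 with a 95% confidence interval of 0.89 to 1.19. Ddit3 overlaps Mars on the opposite strand in 3.97% of its exonic bases. A second gene model of the same name, on the same strand, overlaps 6.13% of them.

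Trib3, a pseudokinase induced by ATF4 and CHOP (ENSMUSG00000032715, chr2:152337422-152344032), had the highest fold change of the 33 members. Its level was 5.31 and 5.48 CPM in control replicates 1 and 2 and 7.50 and 6.77 CPM in EGCG replicates 1 and 2. Both EGCG libraries were above both control libraries by more than the distance between replicates, on counts of 97, 98, 136 and 121. Trib3 thus had a log2 fold change of 0.40 (SE 0.17, 95% confidence interval 0.03 to 0.78), or 1.32-fold, with an unadjusted p of 0.037 and an adjusted p of 0.378 by edgeR's quasi-likelihood test. It was between 0.33 and 0.48 when libraries were left out in turn.

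Asns, which makes asparagine and is a standard ATF4 target (ENSMUSG00000029752, chr6:7675169-7693254), was at 43.2 and 48.2 CPM in control replicates 1 and 2 and at 48.1 and 59.2 CPM in EGCG replicates 1 and 2. EGCG replicate 2 stood above the rest, while EGCG replicate 1 was level with control replicate 2. The log2 fold change was 0.23 (SE 0.11, adjusted p = 0.403 by edgeR's quasi-likelihood test), and it was 0.07 without EGCG replicate 2 and 0.38 without EGCG replicate 1.

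Sesn2, a stress-induced inhibitor of mTORC1 signaling (ENSMUSG00000028893, chr4:132492032-132510501), was at 109 and 112 CPM in the control replicates and at 109 and 115 CPM in the EGCG replicates. Its log2 fold change was 0.02 (SE 0.07), and its sign turned with library size as the only scaling (-0.01). Ppp1r15a, which encodes the GADD34 subunit that reverses eIF2α phosphorylation, was at 53.2 and 62.1 CPM in the control replicates and at 44.6 and 55.8 CPM in the EGCG replicates. The groups overlapped and the log2 fold change was -0.20 (SE 0.11). It rested on single libraries, since leaving out EGCG replicate 1 gave -0.05, control replicate 2 gave -0.08 and EGCG replicate 2 gave -0.37. Chac1, which degrades glutathione, and Psat1, of serine synthesis, had log2 fold changes of -0.09 and 0.07 with overlapping groups. With a library left out, Chac1 ran from -0.18 to -0.01 and Psat1 from -0.01 to 0.15.

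**Figure D3:**
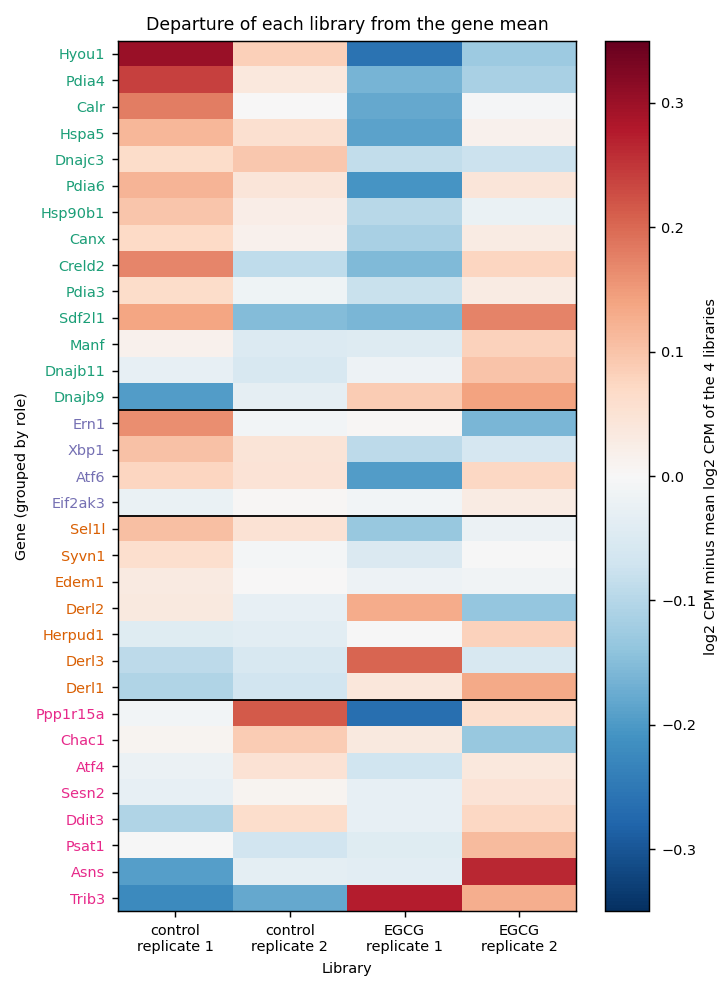
Deviation of each member in each library from its mean over the 4 libraries, in log2 CPM, colored red above and blue below the mean, with members in rows by role and libraries in columns. EGCG replicate 1 is the lowest library for 18 of the 33 members and control replicate 1 the highest for 15.

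The libraries within a group differed in the direction of the members. Of the 33 members, 15 were highest in control replicate 1 and 18 were lowest in EGCG replicate 1, while EGCG replicate 2 was the highest library for 11. The members took 0.347% and 0.326% of all counts in control replicates 1 and 2 and 0.301% and 0.325% in EGCG replicates 1 and 2, so EGCG replicate 2 was level with control replicate 2. The median log2 fold change of the members was 0.0044 without EGCG replicate 1 and -0.08 without EGCG replicate 2. At an unadjusted p under 0.05, leaving out EGCG replicate 1 gave 1 of 33 members lower and 2 higher, where 6.04% of all genes tested in that fit were lower and 4.23% higher. Leaving out EGCG replicate 2 gave 7 lower and 1 higher (6.49% and 3.90% of all genes). With control replicate 1 left out, 2 were lower and 0 higher (3.93% and 2.59%), and with control replicate 2 left out, 5 were lower and 3 higher (7.58% and 6.78%). Direction was the same in all 10 alternative settings and in all 4 fits with a library left out for 21 of the 33 members. These fits reuse the same libraries, and the matching share of all tested genes was not computed, so the count is a description only.

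**Figure D4:**
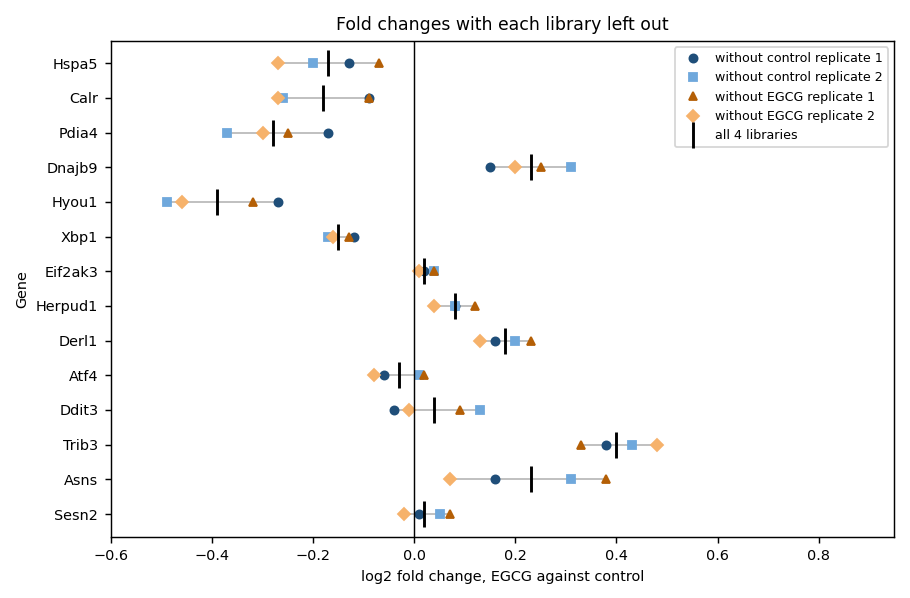
Log2 fold change, EGCG against control, of 14 members fitted with all 4 libraries (vertical bar) and with each library left out in turn (marks). Hyou1 runs from -0.49 to -0.27 and Trib3 from 0.33 to 0.48, while the marks of Atf4, Ddit3 and Sesn2 lie on both sides of 0.

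Among the 9 members with an ERSE the log2 fold change was -0.12 at the median, with 8 lower and 1 higher (-0.18 to 0.15). That median depended on single libraries, at -0.04 when EGCG replicate 1 was left out (7 of 9 lower), -0.08 when control replicate 1 was, and -0.16 when either of the others was. The 20 members with a window but no ERSE had a median of 0.01, with 9 lower and 11 higher (-0.28 to 0.40), and it ran from -0.02 to 0.03 with a library left out. Within the chaperone role, Pdia4 (-0.28), Pdia3 (-0.05), Sdf2l1 (0.02), Dnajb11 (0.08) and Dnajb9 (0.23) had a window without an ERSE. None of the 9 members with the element was called, and the difference between the sets was not tested.

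A further 89 genes of the same pathways were followed in 4 lists, and 83 of them had enough counts to be tested. None differed at an adjusted p under 0.05 (0 of 83, edgeR's quasi-likelihood test), while an unadjusted p under 0.05 was found for 2 at higher (2.41%, against 5.22% of all tested genes) and 7 at lower levels (8.43%, against 7.02%). The fitted fold change was higher for 51 and lower for 32 (38.6% lower, against 49.4% of all tested genes), with a median log2 fold change of 0.03. In the 24 further genes of ER folding and translocation the median was -0.01, and 0 of 24 had an unadjusted p under 0.05. Of 19 further genes of ER-associated degradation, 17 had a higher and 2 a lower fitted fold change (10.5% lower, against 49.4% of all tested genes), with a median of 0.05. Control replicate 1 was the lowest library for 11 of the 19 and EGCG replicate 2 the highest for 12. Their summed level was 2073 and 2158 CPM in control replicates 1 and 2 and 2145 and 2210 CPM in EGCG replicates 1 and 2, so the groups overlapped. Edem3, a mannosidase of glycoprotein disposal, was at 58.5 and 49.6 CPM in the control replicates and at 48.1 and 43.7 CPM in the EGCG replicates, with a log2 fold change of -0.24 (SE 0.10, adjusted p = 0.361). Selenok, a selenoprotein of the ER membrane, was at 87.6 and 103 CPM against 107 and 110 CPM, with a log2 fold change of 0.19 (SE 0.09, adjusted p = 0.405).

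Of 16 further sensors and regulators of ER stress, an unadjusted p under 0.05 was found for 4 at lower levels (25.0%, against 7.02% of all tested genes) and 0 at higher levels, and the median was -0.05. The 4 included Eif2ak2 and Eif2ak4, which encode the eIF2α kinases PKR and GCN2. Eif2ak2 was at 24.5 and 28.7 CPM in the control replicates and at 20.2 and 20.5 CPM in the EGCG replicates, with a log2 fold change of -0.38 (SE 0.11, adjusted p = 0.199). Eif2ak4 was at 11 and 10.6 CPM against 8.33 and 8.45 CPM, with a log2 fold change of -0.36 (SE 0.14, adjusted p = 0.339). For both kinases the EGCG libraries lay below the control libraries. Creb3l2, a membrane-bound transcription factor related to ATF6, was at 24.7 and 21.7 CPM against 17.4 and 19.2 CPM, with a log2 fold change of -0.34 (SE 0.11, adjusted p = 0.253). Mbtps1, the site-1 protease that cuts ATF6, was at 60.3 and 59.7 CPM against 51.4 and 53.8 CPM, with a log2 fold change of -0.19 (SE 0.08, adjusted p = 0.378).

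Of 30 further targets of ATF4 and the integrated stress response, 24 were tested, with 17 higher and 7 lower and a median of 0.09. The share lower was 29.2%, against 49.4% of all tested genes. Summed over the 30, the level was 1024 and 999 CPM in control replicates 1 and 2. It was 934 and 1051 CPM in EGCG replicates 1 and 2, so the groups overlapped. Cbs and Fgf21 had 0 counts in each library. Slc7a11, the cystine transporter subunit, was at 224 and 217 CPM in the control replicates and at 178 and 187 CPM in the EGCG replicates, with a log2 fold change of -0.27 (SE 0.07, unadjusted p = 0.00226, adjusted p = 0.162). The groups were clearly apart for this gene, and it was the gene with the smallest p of the 83. Mthfd2, a mitochondrial folate enzyme, was at 25.2 and 24.4 CPM against 27.7 and 33 CPM, with a log2 fold change of 0.29 (SE 0.11, adjusted p = 0.308). Slc7a1, a carrier of cationic amino acids, was at 25.4 and 25.7 CPM against 21.0 and 22.4 CPM, with a log2 fold change of -0.23 (SE 0.10, adjusted p = 0.386).

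Marker lists of other cells differed in direction, and none of their genes passed adjustment. Of the 8 neutrophil markers, 6 had a higher fitted fold change with EGCG, and most of their summed level came from S100a8 (0.38) and S100a9 (0.21), while Csf3r (0.01) and Cxcr2 (-0.01) were near 0 on the log2 scale. Of 5 B cell markers 4 were higher, and of 3 tested erythroid markers 3 were higher. Of 6 macrophage markers, 6 had a lower fitted fold change and 3 an unadjusted p under 0.05, with 3 of the 6 overlapping between groups, where 49.4% of all tested genes were lower and 7.02% were lower with an unadjusted p under 0.05. All 4 endothelial markers were lower, 3 of them with an unadjusted p under 0.05, with summed levels of 18.9 and 19.6 CPM in the control replicates and 10.1 and 13.2 CPM in the EGCG replicates. Of 5 monocyte markers, 4 were lower and 1 higher, and 1 of the lower ones had an unadjusted p under 0.05, with summed levels of 987 and 951 CPM against 903 and 903 CPM.

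Plasma cells are secretory cells rich in ER chaperones, and their summed markers were at 207 and 227 CPM in the control replicates and at 267 and 236 CPM in the EGCG replicates. Most of that sum was Jchain, at 177 and 196 CPM against 234 and 206 CPM. Mzb1 was at 13.9 and 17.2 CPM against 20.8 and 16.7 CPM, and like Jchain it was lowest in control replicate 1 and highest in EGCG replicate 1. Sdc1, at 15.6 and 13.5 CPM against 11.4 and 13.7 CPM, had the opposite order of these libraries, and Tnfrsf17 had at most 6 counts in a library. In the epithelial list, for 4T1 cells, Krt8 had at most 2 counts in a library. Epcam had log2 fold change 0.63 (SE 0.20), Krt18 had 0.57 (SE 0.42) and Cdh1 had -0.26 (SE 0.12). The test of these markers was edgeR's quasi-likelihood test, and their part in the values of the members was not tested.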

How the data were processed

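RNA-seq was performed on 4 libraries, 2 per group. Reads were aligned by the authors to GRCm38 (STAR 2.6.0c) and assigned to genes of Ensembl release 91 with featureCounts 1.6.2, ignoring strand. The authors deposited whole-number counts that were not normalized. From these counts, genes with few reads were removed with filterByExpr of edgeR 4.0.16 (minimum count of 10), TMM factors were applied, and the EGCG and control groups were compared by the quasi-likelihood test without a block. Benjamini-Hochberg adjustment covered the 14682 tested genes at a threshold of 0.05, and all tests were two-sided. With 2 libraries against 2, an exact permutation test of a single gene cannot go below 0.333 and was not used.

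The members and the lists of pathway and marker genes were chosen with earlier results of these data known. Values in every library are given for members with an unadjusted p under 0.05, the 2 most abundant members per role, and Hspa5, Xbp1, Herpud1, Atf4 and Ddit3. Ern1, Atf6, Dnajc3, Sel1l, Ppp1r15a and Edem1 were singled out after their values were seen. From each pathway list, up to 4 genes with the smallest unadjusted p under 0.05 are named.

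Alternatives were other filters and scalings, DESeq2 1.42.0, a robust fit, a correction for exonic length, a block for the replicate number, and leaving out each library in turn. Gene positions and exonic lengths came from GENCODE M21 (GRCm38) and promoter sequences from RefSeq (GRCm38.p6). The differential expression code was tested on simulated data. R 4.3.3, limma 3.58.1 and Python 3.11.15 were also used. Since strand was not used, reads of a member and of a gene that overlaps it on the other strand cannot be told apart. Sequencing reads, proteins and Xbp1 splicing were not analysed here.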

Additional observations from a re-analysis of the deposited data

How the results depend on the processing

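The number of members called was 0 under 9 of the 10 alternative settings and 1 (Hyou1) with library size as the only scaling, and 0 to 1 when libraries were left out in turn. Members higher at an unadjusted p under 0.05 numbered 0 with library size only and 0 with DESeq2, against 4, where 3.21% and 2.59% of all tested genes were higher, and 0 to 3 with a library left out. Members lower numbered 9 with library size only, 4 with a replicate block and 4 with the length correction and the block, against 2, where 9.58%, 7.38% and 4.41% of all tested genes were lower, and 1 to 7 with a library left out. The median of the members was between -0.08 and 0.0044 with a library left out. Genes called, 22 in all, numbered 0 without a filter, 151 with library size only, 11 with upper-quartile scaling, 50 with DESeq2, 63 with the robust fit, 5 with the length correction, 4 with the length correction and the block, and 77 to 354 with a library left out, where a lone library was assumed to vary like the other group. The causes were not tested. Library size as the only scaling moved the median of all genes to -0.03, and it turned 5 members below 0, namely Eif2ak3 (-0.01), Sesn2 (-0.01), Sdf2l1 (-0.02), Manf (-0.0014) and Derl2 (-0.03). With a library left out, Atf4 ran from -0.08 to 0.02, Ddit3 from -0.04 to 0.13 and Sesn2 from -0.02 to 0.07. The labels name no shared origin for same-numbered replicates, and their deviations correlated at 0.0336. Whether they shared a mouse or a sort cannot be told from these values. The replicate block gave 30 called genes. With 2 libraries per group, the depth limits Derl3 and Trib3 most.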
